A study of Mus musculus with 295 samples.

Results

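Acute phase proteins are plasma and tissue proteins whose production changes with inflammation. The genes described are the 8 named Orm1, Orm2, Saa1, Saa2, Saa3, Lcn2, Steap4 and Cp, and their probes were taken by symbol from the platform's probe table. They were 8 of 11454 genes and 9 of 22894 probes measured in at least 90% of the arrays, since Orm2 had 2 probes and every member probe passed that minimum. Adipose tissue RNA of 295 F2 mice was measured, 1 mouse per array, in a cross of C57BL/6J with C3H/HeJ in which both parental strains were null for ApoE. All mice ate the Western diet, rich in fat, between weeks 8 and 24 of age, and both sexes were included. Each array compared a mouse's RNA with a pool made from all the RNAs, so a log2 ratio of 0 is read as the level of the pool. The centring of the values is not stated, and the level of a gene cannot be set against the level of another. The labels form 1 group and give no sex, genotype or weight for a mouse, nor the fat depot, and 330 mice are mentioned in the text of single samples.

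The liver makes most of the acute phase proteins of the blood, and fat tissue makes some of them itself. Interleukin 6 acting through STAT3, interleukin 1 and tumour necrosis factor acting through NF-kB, the C/EBP factors and glucocorticoids are the classical inducers. Orm1 and Orm2 encode orosomucoids, also called alpha-1 acid glycoproteins, which bind lipophilic molecules in plasma. Saa1 and Saa2 encode serum amyloid A apolipoproteins of high-density lipoprotein, and Saa3 encodes the form made outside the liver, mainly by fat cells and macrophages in mice. Lcn2 encodes lipocalin 2, which binds bacterial siderophores and so withholds iron. Steap4 encodes a metalloreductase of fat cells that reduces iron and copper, and Cp encodes ceruloplasmin, the copper-carrying ferroxidase of plasma. Lep encodes leptin, the hormone that fat cells release in proportion to fat stores, and its level served as the regressor across mice.

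Arrays were placed in 3 sets by genes outside the member list. In 142 mice Eif2s3y, which lies on the Y chromosome and encodes a translation initiation factor subunit, had log2 ratios from -6.51 to -4.16, and these are called Eif2s3y-low. Of the Eif2s3y-high mice, 47 also carried Gpx5, an epididymal glutathione peroxidase, at 0.24 to 3.01, and 105 had Gpx5 at -5.89 to -4.28. One further array had no Gpx5 value and stands in no set. The sets are not groups of the labels. The mean of 6 epididymis genes ran from 0.98 to 2.65 on the 47 arrays, from -5.64 to -3.11 in Eif2s3y-low mice and from -5.50 to -1.03 on the 105, so epididymal transcripts were present where Gpx5 was high. Adipocyte markers were lower in the same 47 arrays: the mean of 9 of 14 listed genes ran from -1.06 through a median of 0.23 to 0.89 in Eif2s3y-low mice, from -1.78 through -0.68 to -0.02 in the 47, and from -0.97 through -0.15 to 0.52 in the 105. Pool-relative values cannot show that a marker is absent. In RNA of whole tissue, fewer cells of a type and less RNA per cell cannot be told apart.

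The promoters of the members are shown because several members moved together and because the Saa genes could not be fully separated by their probes. Of the 8 genes, 7 had an entry in the RefSeq table (GRCm38.p6), each with 250 bases before and 50 after the annotated start. Capitals mark a C/EBP pattern, TTNNGCAA, searched on both strands.
Orm2, chr4:63362199-63362498, plus strand: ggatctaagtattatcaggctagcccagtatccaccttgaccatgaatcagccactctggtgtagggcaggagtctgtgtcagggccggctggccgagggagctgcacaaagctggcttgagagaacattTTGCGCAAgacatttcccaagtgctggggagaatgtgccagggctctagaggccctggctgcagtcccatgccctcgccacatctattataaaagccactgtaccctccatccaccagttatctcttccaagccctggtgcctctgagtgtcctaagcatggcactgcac
Steap4, chr5:7960222-7960521, plus strand: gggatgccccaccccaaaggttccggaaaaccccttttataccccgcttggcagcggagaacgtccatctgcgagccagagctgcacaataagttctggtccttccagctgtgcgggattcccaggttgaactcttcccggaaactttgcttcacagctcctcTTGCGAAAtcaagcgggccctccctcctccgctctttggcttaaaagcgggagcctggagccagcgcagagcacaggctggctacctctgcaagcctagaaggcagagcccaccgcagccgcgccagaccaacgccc
Saa1, chr7:46742931-46743230, minus strand: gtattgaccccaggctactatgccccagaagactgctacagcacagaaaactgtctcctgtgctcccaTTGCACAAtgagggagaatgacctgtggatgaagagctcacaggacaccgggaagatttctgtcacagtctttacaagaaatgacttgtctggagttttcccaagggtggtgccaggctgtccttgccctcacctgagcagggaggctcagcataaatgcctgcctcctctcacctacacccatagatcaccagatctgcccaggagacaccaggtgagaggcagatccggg
Saa2, chr7:46751583-46751882, plus strand: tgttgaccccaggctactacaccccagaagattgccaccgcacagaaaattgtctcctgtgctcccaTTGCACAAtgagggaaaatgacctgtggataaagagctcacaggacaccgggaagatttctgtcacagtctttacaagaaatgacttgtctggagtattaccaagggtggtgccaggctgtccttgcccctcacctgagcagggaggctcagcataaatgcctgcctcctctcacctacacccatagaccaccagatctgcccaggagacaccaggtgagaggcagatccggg
Saa3, chr7:46715627-46715926, minus strand: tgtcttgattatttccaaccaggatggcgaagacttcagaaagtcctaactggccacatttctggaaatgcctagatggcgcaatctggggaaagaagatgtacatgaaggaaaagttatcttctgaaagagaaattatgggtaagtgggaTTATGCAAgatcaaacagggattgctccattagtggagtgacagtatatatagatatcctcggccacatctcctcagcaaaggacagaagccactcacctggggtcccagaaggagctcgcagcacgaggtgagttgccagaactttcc
Lcn2, chr2:32387690-32387989, minus strand: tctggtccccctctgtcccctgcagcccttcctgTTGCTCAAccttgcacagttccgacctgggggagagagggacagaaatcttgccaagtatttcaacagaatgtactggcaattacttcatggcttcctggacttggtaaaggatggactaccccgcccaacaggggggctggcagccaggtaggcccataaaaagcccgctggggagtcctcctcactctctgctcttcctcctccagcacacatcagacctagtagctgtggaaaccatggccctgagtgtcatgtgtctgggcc
The pattern was found in the promoters of all 7 genes, for Cp in one of its 2 annotated windows, against 10.8% of 32817 promoters of the same length. The STAT pattern TTCNNNGAA was found for Steap4, and stood in 8.29% of all promoters. The NF-kB pattern, GGGA and CC separated by any 4 bases, was found for Steap4 and in a Cp window, against 20.7% of all promoters. The palindrome ACANNNTGT of glucocorticoid response elements was found for Lcn2, against 6.85%. A match is a run of letters and not a measured site. Saa1 and Saa2 promoters were identical at 95.3% of aligned positions, and Saa1 and Saa3 promoters at 54.2%.

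Orm1 was measured in all 295 mice, with a lowest log2 ratio of -2.36, a median of 0.06 and a highest of 1.32. Its SD over mice was 0.68 ± 0.03 (SE), against a median SD of 0.29 over all probes, and its central 90% of mice spanned 4.85-fold. Orm2 ran from -1.39 through a median of 0.11 to 1.42, with an SD of 0.51 ± 0.02. The second Orm2 probe ran from -0.92 through 0.04 to 2.13, with an SD of 0.42 ± 0.02. Both orosomucoid genes therefore differed between mice more than most probes did. Saa1 ran from -2.46 through -0.16 to 1.67, and Saa3 from -2.54 through -0.16 to 1.62. Saa2 ran from -1.90 through -0.35 to 3.72, and all Saa SDs lay between 0.83 and 0.84. Lcn2 had the largest SD of the members, 1.36 ± 0.06, with values from -2.41 through -1.28 to 2.88 and a central span of 19.6-fold. Only 272 of the 22894 probes had a larger SD than Lcn2. Steap4 ran from -1.52 through -0.04 to 0.97 in the 285 mice that had a value, and Cp from -1.62 through -0.03 to 1.48 in all 295. Fold sizes rest on reading the deposited values as log10 ratios, which their spread does not settle.

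**Figure D1:**
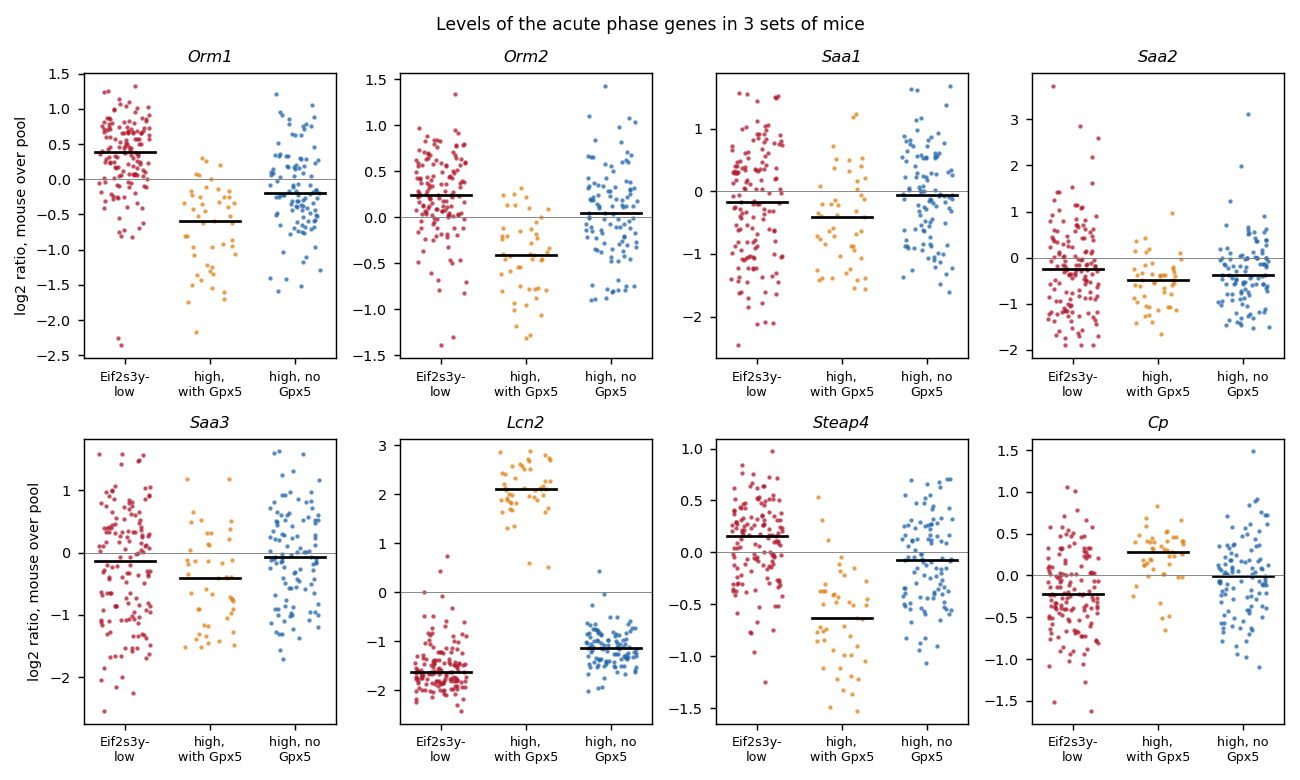
Log2 ratio of each member over the pool (vertical axis) for every mouse (points), by set from left to right: 142 Eif2s3y-low, 47 Eif2s3y-high with Gpx5 and 105 Eif2s3y-high without Gpx5. Black bars are medians; Lcn2 in the 47 arrays with Gpx5 lies between 0.53 and 2.88, above every one of the 105.

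Orm1 and the first Orm2 probe followed Lep closely, and the second Orm2 probe less so. With each gene ranked by its most variable probe, Orm2 had the largest correlation with Lep of all 11453 genes (r = 0.75, rho = 0.71, n = 295), and Orm1 the seventh (r = 0.69, rho = 0.64). The second Orm2 probe gave r = 0.44 and rho = 0.47, and 1334 probes had a larger absolute r. By limma with Benjamini-Hochberg adjustment over probes, Orm2 rose by 0.84 ± 0.04 log2 units per log2 unit of Lep (SE, adjusted p = 8.07e-52). Orm1 rose by 1.04 ± 0.06 (adjusted p = 1.56e-40), which is 2.05-fold for each doubling of Lep. The fold per doubling was 1.79 for the first Orm2 probe and 1.32 for the second (slope 0.40 ± 0.05, adjusted p = 1.36e-14). Of the 22893 probes tested, 67.0% were called in either direction, so a call is common, while 2.74% of probes reached an absolute r of 0.5. Of the 9 member probes, 5 reached it, but the members were chosen with earlier results of these data known. Those 5 are not separate, since the Saa1 and Saa3 probes among them gave almost the same values. The count is a description and not a test. Each of the 9 correlations had a permutation p of 1e-05, the smallest that 100000 permutations can give, and rho reached it for all but Lcn2. After the 2 mice with the most extreme Lep were set aside, r was 0.75 for Orm2 and 0.68 for Orm1.

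Each of the 3 orosomucoid probes was called in each set. For Orm1, r was 0.59 in Eif2s3y-low mice, 0.85 in mice with Gpx5 and 0.79 in Eif2s3y-high mice without Gpx5. For the first Orm2 probe the values in the same order were 0.66, 0.81 and 0.81, and for the second 0.41, 0.55 and 0.34. The adjusted p was at most 1.09e-08 for Orm1 and the first Orm2 probe and at most 0.00195 for the second, while 60.4%, 16.7% and 39.5% of all probes were called within the 3 sets. The slope of Orm2 on Lep was 0.65 ± 0.06 in Eif2s3y-low mice and 0.88 ± 0.06 in Eif2s3y-high mice without Gpx5 (SE). That difference of -0.23 ± 0.09 passed the test (adjusted p = 0.0425), as did 23.2% of all probes. The like difference for Orm1, -0.28 ± 0.12, had an adjusted p of 0.0656, and the second Orm2 probe gave -0.11 ± 0.10 (adjusted p = 0.438). In the low, middle and high blocks of mouse numbers, of 99, 98 and 98 mice, r was 0.69, 0.68 and 0.64 for Orm1, and 0.77, 0.72 and 0.71 for Orm2.

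**Figure D2:**
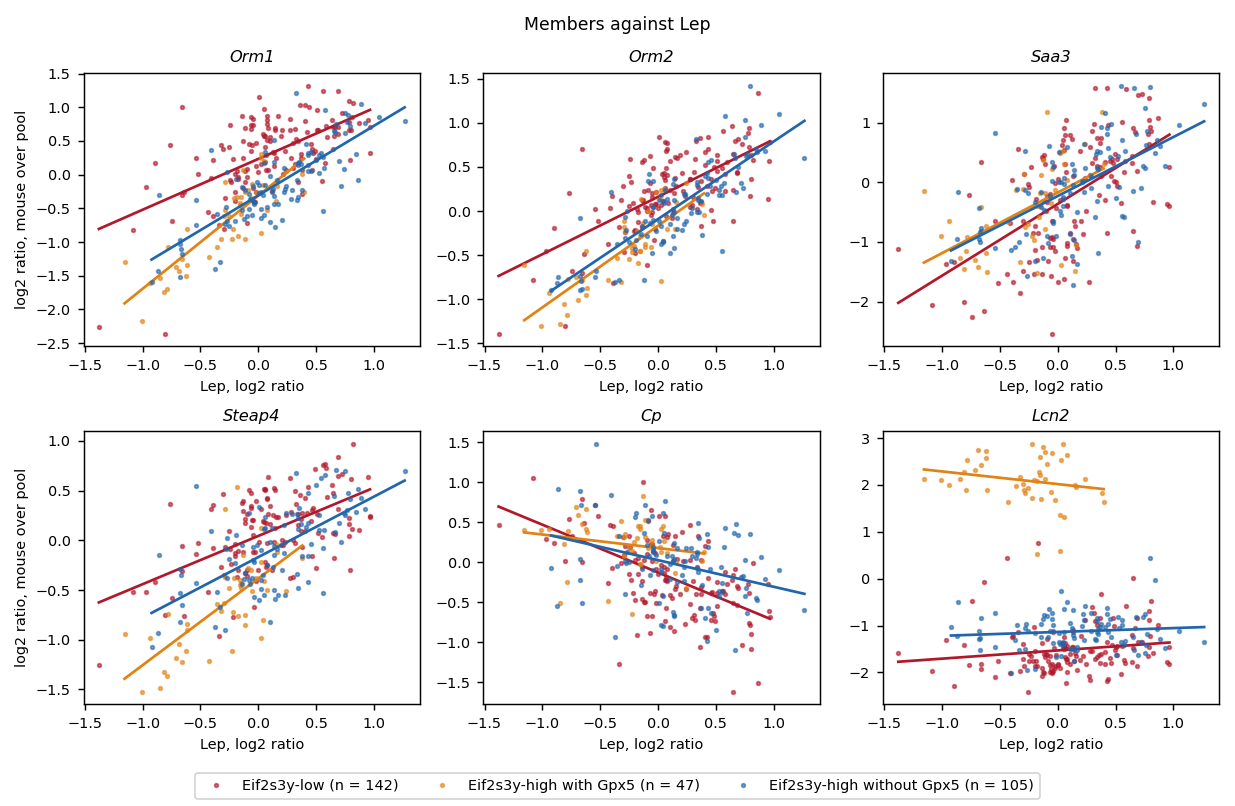
Log2 ratio of 6 members (vertical axes) against the log2 ratio of Lep (horizontal axes), a point per mouse, with a least-squares line for each of the 3 sets. Orm1, Orm2, Saa3 and Steap4 climb with Lep in every set, Cp descends, and Lcn2 separates into 2 bands.

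The orosomucoid genes also differed in level between the sets. Orm1 had a lowest value of -2.36, a median of 0.38 and a highest of 1.32 in Eif2s3y-low mice. It had -2.17, -0.59 and 0.31 in mice with Gpx5, and -1.59, -0.19 and 1.21 in Eif2s3y-high mice without Gpx5. The ranges overlapped, although 121 of 142 Eif2s3y-low mice lay above the median of the 105. The mean was 0.46 ± 0.07 higher in Eif2s3y-low mice than in the 105 (SE, limma adjusted p = 6.44e-09), and 65.9% of all probes were called in this contrast. Orm2 was higher there by 0.19 ± 0.06 (adjusted p = 0.0027) and its second probe by 0.22 ± 0.05 (adjusted p = 1.41e-05).

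In mice with Gpx5, Orm1 was lower than in the 105 by 0.55 ± 0.10 (log2 difference -0.55, adjusted p = 2.89e-07), in a contrast where 71.5% of probes were called. Orm2 was lower by 0.47 ± 0.08 (log2 difference -0.47, adjusted p = 2.45e-08). Lep itself was lower in mice with Gpx5, with a median of -0.18 against 0.14 in the 105. With Lep as a covariate the Orm1 difference was -0.14 ± 0.08 and no longer passed (adjusted p = 0.0814), and that of Orm2 was -0.14 ± 0.06 (adjusted p = 0.0256). The adipocyte markers given above were lower in the same arrays, and their part in these differences was not tested.

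The 2 probes of Orm2 did not report the same thing in every mouse. Their correlation was 0.64 over all mice, below the 0.89 between Orm1 and the first Orm2 probe, and the difference between them had an SD of 0.40. In mouse 237, without Gpx5, the second probe stood at 2.13 and the first at 0.34. In mouse 123 they stood at 1.89 and 0.58. The orosomucoid genes are paralogs that lie side by side on chromosome 4, and probes of one can bind transcripts of another.

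Steap4 behaved like the orosomucoid genes. It rose with Lep by 0.67 ± 0.05 log2 units per unit (SE, limma adjusted p = 5.22e-33, r = 0.64, rho = 0.59), in a fit that filled 10 missing values with the probe mean. With those gaps left out r was 0.65. Within sets r was 0.55 in Eif2s3y-low mice, 0.69 with Gpx5 and 0.64 in Eif2s3y-high mice without Gpx5, with an adjusted p of at most 5.83e-06. In the low, middle and high blocks of mouse numbers it was 0.64, 0.63 and 0.56.

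The level of Steap4 had a lowest value of -1.25, a median of 0.16 and a highest of 0.97 in Eif2s3y-low mice. It had -1.52, -0.64 and 0.53 in mice with Gpx5, and -1.07, -0.07 and 0.71 in the 105. Only 4 of the 46 measured mice with Gpx5 lay above the median of the 105. The difference was 0.17 ± 0.05 for Eif2s3y-low mice (adjusted p = 0.00207) and -0.55 ± 0.07 for mice with Gpx5 (adjusted p = 1.19e-12). The second difference was -0.30 ± 0.06 with Lep as a covariate and still passed (adjusted p = 2.55e-06).

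The probes of Saa1 and Saa3 gave almost the same values. Their r was 0.995 over all mice and at least 0.993 in each set, and the difference between the probes had an SD of 0.08, against 0.83 for Saa1 itself. The difference ran from -0.40 to 0.66. In mouse 111, an Eif2s3y-low mouse, Saa1 was at 1.03, Saa2 at 3.72 and Saa3 at 0.40. Saa1 and Saa2 correlated at 0.53 only, and their difference had an SD of 0.80, although their promoters are nearly identical. The 3 genes lie within 1 cluster on chromosome 7, their transcripts are alike, and cross-hybridisation of the Saa1 and Saa3 probes cannot be told apart from shared expression. The RefSeq table also lists Saa1 and Saa2 as older names of each other. Results for Saa1 and Saa3 are therefore given together and counted as uncertain in their assignment.

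**Figure D3:**
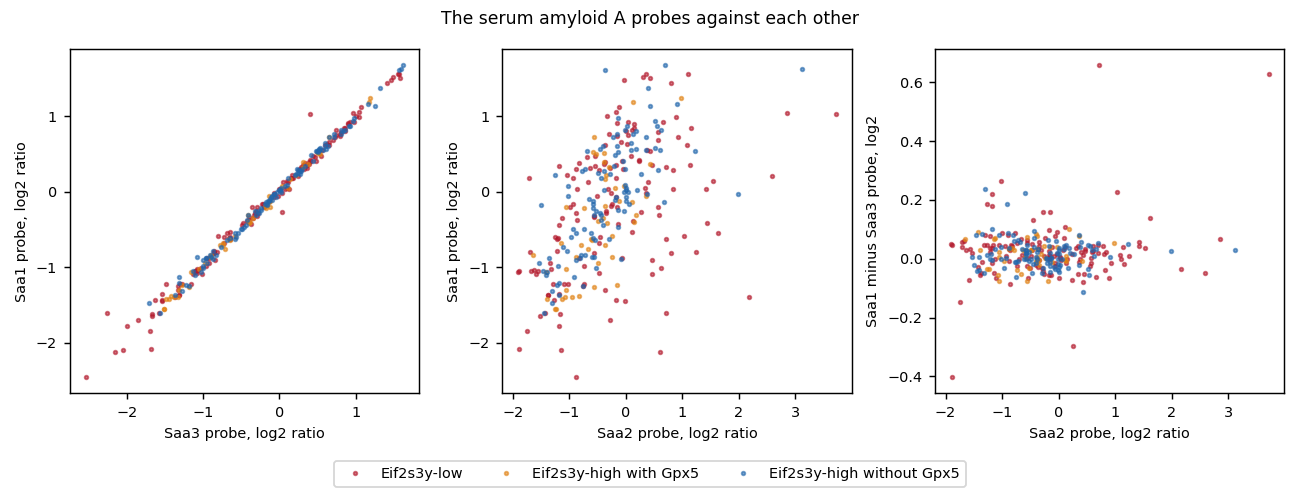
Log2 ratios of the serum amyloid A probes in each mouse: Saa1 against Saa3 (left), Saa1 against Saa2 (middle) and the Saa1 minus Saa3 difference against Saa2 (right), coloured by set. Saa1 and Saa3 fall on a line (r = 0.995), while Saa1 and Saa2 scatter (r = 0.53).

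Saa1 and Saa3 rose with Lep by 1.04 ± 0.09 and 1.06 ± 0.09 log2 units per unit (SE, limma adjusted p = 2.87e-25 and 1.38e-25). Their r was 0.57 and 0.58, and rho was 0.58 for both. Saa3 had an r of 0.57 in Eif2s3y-low mice, 0.52 with Gpx5 and 0.59 in Eif2s3y-high mice without Gpx5, all called, and 0.54, 0.57 and 0.54 in the low, middle and high blocks of mouse numbers. Its slope was 1.20 ± 0.14 in Eif2s3y-low mice and 0.99 ± 0.13 in the 105, and the difference of 0.21 ± 0.20 did not pass (adjusted p = 0.448). Saa2 followed Lep less steeply, with a slope of 0.48 ± 0.10 (adjusted p = 1.41e-05, r = 0.26, rho = 0.29). Within sets it gave 0.15 for Eif2s3y-low mice (adjusted p = 0.106), 0.22 with Gpx5 (adjusted p = 0.282) and 0.43 in Eif2s3y-high mice without Gpx5 (adjusted p = 5.14e-05). On ranks the first of these passed (rho = 0.21, adjusted p = 0.0197). The difference of its slopes between Eif2s3y-low mice and the 105, -0.36 ± 0.23, did not pass (adjusted p = 0.256).

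Saa levels overlapped widely between the sets. Saa3 had a lowest value of -2.54, a median of -0.14 and a highest of 1.59 in Eif2s3y-low mice. It had -1.52, -0.41 and 1.19 in mice with Gpx5, and -1.71, -0.08 and 1.62 in the 105. No Saa probe was called in Eif2s3y-low mice against the 105 (adjusted p from 0.199 to 0.339). In mice with Gpx5, Saa1 and Saa3 were lower than in the 105 (log2 differences of -0.39 ± 0.14 and -0.38 ± 0.15, adjusted p = 0.012 and 0.0147). Both calls were lost once each array's median was removed (adjusted p = 0.0552 and 0.0638). With Lep as a covariate those differences turned to 0.08 ± 0.12 and 0.10 ± 0.13 and did not pass (adjusted p = 0.572 and 0.497). Saa2 differed by -0.22 ± 0.15 in the same contrast (adjusted p = 0.174).

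Saa2 stood out in a few mice. Its highest values were 3.72 in mouse 111 and 3.12 in mouse 35, against an upper quartile of 0.13. Markers of hepatocytes moved with it in part: the mean of 8 of them had a median of -0.14 over all mice and exceeded 1.5 in 5 mice, whose Saa2 values ran from 0.67 to 3.12. The next highest hepatocyte mean was 1.48, so no wide gap sets these 5 mice apart. Mouse 35 was among these, with a hepatocyte mean of 2.08 and the highest Orm2 value, 1.42. In mouse 111 the hepatocyte mean was -0.01. In Eif2s3y-high mice without Gpx5, Saa2 and the hepatocyte score gave r = 0.54 (n = 105), and r = 0.17 without these hepatocyte-rich mice (n = 102), both given as descriptions. Across all mice r was 0.32, and 0.13 without those 5. The relation of every member to Lep kept its direction and its call without them.

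Lcn2 was set apart by the arrays with epididymal transcripts. It had a lowest value of -2.41, a median of -1.62 and a highest of 0.75 in Eif2s3y-low mice. It had 0.53, 2.11 and 2.88 in mice with Gpx5, and -2.004, -1.14 and 0.44 in the 105. All 47 values with Gpx5 lay above all 105 without, which held for 0.354% of the 22894 probes. The medians differed 9.49-fold, and the mean difference was 3.22 ± 0.08 log2 units (SE, limma adjusted p = 1.83e-117). With Lep as a covariate it was 3.25 ± 0.09. Epithelial markers were also higher in those arrays, with the mean of 8 genes between 0.79 and 2.07 there, against -2.90 to 1.80 in the 105, and the part of epididymal or other epithelial cells in Lcn2 was not tested. In Eif2s3y-low mice, where epididymal genes were low, Lcn2 was below the 105 by 0.39 ± 0.06 (log2 difference -0.39, adjusted p = 2.17e-09).

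Because Lcn2 formed separate clusters, its relation to Lep was read within the sets. It stood at 0.15 for Eif2s3y-low mice (adjusted p = 0.1), -0.20 with Gpx5 (adjusted p = 0.339) and 0.10 in Eif2s3y-high mice without Gpx5 (adjusted p = 0.447), so none passed. On ranks within the Eif2s3y-low set it was 0.26 and passed (adjusted p = 0.00281). The pooled slope of -0.84 ± 0.17 (adjusted p = 2.24e-06) joined the 2 clusters. Without the arrays with Gpx5 the pooled r was 0.14 (adjusted p = 0.045, n = 247).

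Cp fell with Lep (slope -0.48 ± 0.05, SE, limma adjusted p = 6.21e-16, r = -0.46, rho = -0.46), and 200 genes had a lower r. Within sets r was -0.55 in Eif2s3y-low mice, -0.20 with Gpx5 (adjusted p = 0.329) and -0.32 in Eif2s3y-high mice without Gpx5 (adjusted p = 0.00325). The slope difference between Eif2s3y-low mice and the 105 was -0.26 ± 0.12 (adjusted p = 0.0846). In the low, middle and high blocks of mouse numbers r was -0.49, -0.51 and -0.34.

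Cp had a lowest value of -1.62, a median of -0.22 and a highest of 1.05 in Eif2s3y-low mice. It had -0.65, 0.28 and 0.83 in mice with Gpx5, and -1.09, -0.01 and 1.48 in the 105. It was lower in Eif2s3y-low mice than in the 105 (log2 difference -0.17 ± 0.06, adjusted p = 0.00671) and higher in mice with Gpx5 (0.25 ± 0.08, adjusted p = 0.00291). With Lep as a covariate the second difference was 0.06 ± 0.08 (adjusted p = 0.527). The ranges of the 3 sets overlapped.

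Among the sets, the slopes on Lep in mice with Gpx5 were not found to differ from those of the 105 for any member probe by limma (adjusted p from 0.478 to 0.987), in a test that called 0.0917% of all probes. The largest such difference was that of Saa2, -0.38 ± 0.37. Only 47 mice carried Gpx5, and the standard errors of these differences ran up to 0.37.

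Of the 28 pairs among the 8 genes, 24 were called over all mice, each pair in a limma fit over all probes, with 16 positive and 8 negative. In fits on a single member, the share of all probes called was 73.4% for Orm1, 65.6% for Orm2, 71.8% for Steap4 and 72.1% for Lcn2. It was 50.2% for Saa1, 23.5% for Saa2, 51.1% for Saa3 and 61.0% for Cp. The closest pair after Saa1 and Saa3 was Orm1 and Orm2 (r = 0.89, rho = 0.88). Orm1 and Steap4 gave 0.81 (rho 0.76), and Orm2 and Steap4 0.75 (rho 0.71). All 3 had a permutation p of 1e-05 and stood in each set: Orm1 and Steap4 at 0.65 in Eif2s3y-low mice, 0.83 with Gpx5 and 0.81 in the 105. The second Orm2 probe gave 0.58 with Steap4 over all mice, and 0.48, 0.56 and 0.39 in the sets in the same order. Of the 36 probe pairs tested by permutation, 22 reached 1e-05.

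The serum amyloid A genes and the orosomucoid genes correlated less once Lep was held constant. Orm1 and Saa3 gave r = 0.41, and 0.02 with Lep as a covariate (adjusted p = 0.798). Without that covariate this pair gave 0.35 in Eif2s3y-low mice, 0.66 with Gpx5 and 0.55 in the 105. The fits with Lep as a covariate ran over all mice with no term for the set, so differences in level between sets enter them. The first Orm2 probe and Saa3 gave 0.52, and 0.16 with Lep (adjusted p = 0.0158). The second Orm2 probe and Saa3 gave 0.16, and -0.14 with Lep (adjusted p = 0.0298). Orm1 and Orm2 gave 0.78 with Lep as a covariate, and Orm1 and Steap4 gave 0.65. With that covariate 12 of the 28 gene pairs were called. The share of all probes called in those fits was not counted, so the lower count is not read as particular to the members. Steap4 and Cp gave -0.11 (adjusted p = 0.0736) and turned to 0.27 with Lep as a covariate (adjusted p = 6.97e-06).

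Pairs with Lcn2 were read within the sets. Over all mice Lcn2 gave -0.50 with Orm1 and -0.54 with Steap4, values that join the clusters. In the 105 the same pairs gave -0.01 and 0.03, and Lcn2 gave 0.55 with Saa2 and 0.40 with Saa3 (adjusted p = 5.33e-07 and 0.000667), in fits where 12.2% and 25.5% of probes were called. Without the hepatocyte-rich mice the correlation of Lcn2 with Saa2 in that set was 0.47. In Eif2s3y-low mice Lcn2 gave 0.27 with Saa2 (adjusted p = 0.0106) and -0.31 with Cp (adjusted p = 0.000314), where 18.9% and 66.9% of probes were called. No test compared these correlations between sets.

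**Figure D4:**
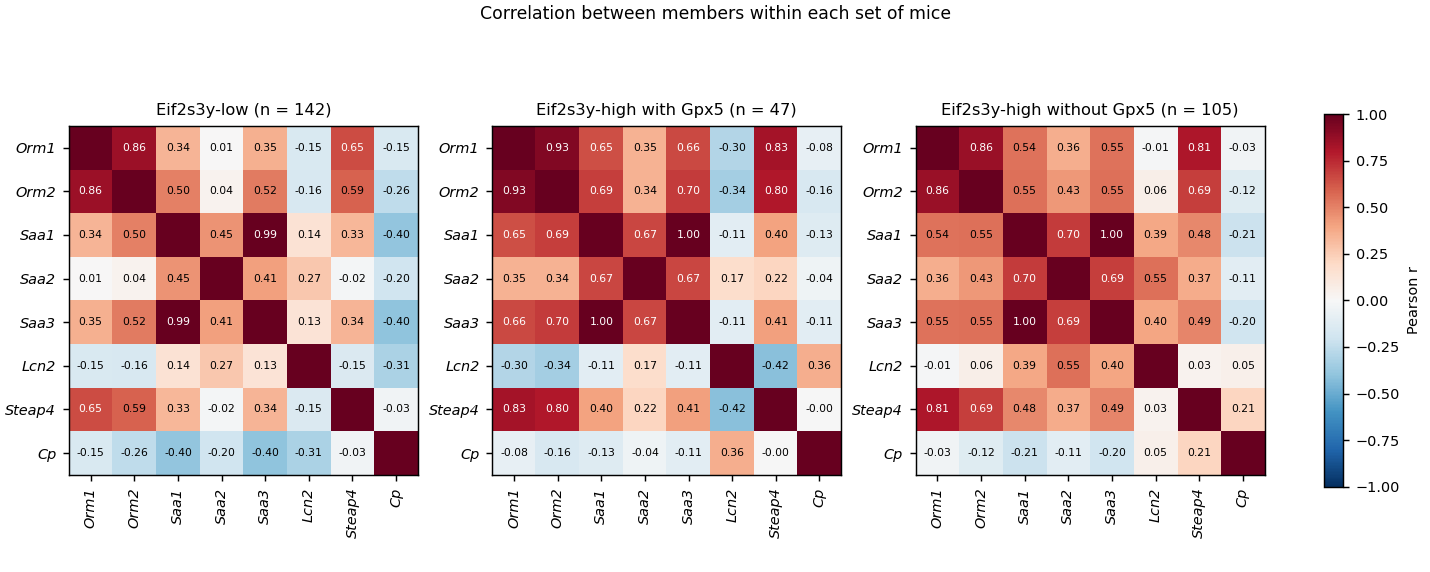
Pearson r between the 8 members within each set of mice (panels from left: Eif2s3y-low, Eif2s3y-high with Gpx5, Eif2s3y-high without Gpx5), with the value in each cell and the colour scale from -1 to 1. Orm1, Orm2 (first probe only) and Steap4 form a positive block of at least 0.59 in every set, and Saa1 with Saa3 is at 0.99 or above.

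Macrophages enter fat as it expands and are another source of Saa3, so the members were also set against the mean z-score of 12 macrophage genes. Over all mice Saa1 and Saa3 rose with the score (r = 0.33 each, limma adjusted p = 3.90e-08 and 2.43e-08), while Orm1 fell (r = -0.39), as did Steap4 (r = -0.23), Cp (r = -0.20) and Orm2 (r = -0.15). Of 22882 probes, 57.0% were called. The sets differed. Within the sets 46.2%, 24.3% and 43.4% were called, in the order Eif2s3y-low, with Gpx5 and without. Saa3 had r = 0.65 in Eif2s3y-low mice (adjusted p = 4.52e-17), -0.13 with Gpx5 (adjusted p = 0.547) and -0.08 in the 105 (adjusted p = 0.535). Its slope per unit of score was 0.70 ± 0.07 in Eif2s3y-low mice and -0.09 ± 0.11 in the 105, and the difference of 0.79 ± 0.12 passed (adjusted p = 1.03e-07), as did 18.5% of all probes.

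Orm1 and Steap4 differed between the same sets in another way. Orm1 had r = -0.09 with the score in Eif2s3y-low mice (adjusted p = 0.393), -0.51 with Gpx5 (adjusted p = 0.00197) and -0.61 in the 105 (adjusted p = 2.83e-11). Steap4 had 0.09, -0.46 and -0.56 in the same order. The slope differences between Eif2s3y-low mice and the 105, 0.46 ± 0.09 for Orm1 and 0.37 ± 0.06 for Steap4, both passed (adjusted p = 3.03e-05 and 1.51e-06). Between mice with Gpx5 and the 105 only the second Orm2 probe differed in slope, by 0.28 ± 0.09 (adjusted p = 0.0239), in a test that called 5.57% of probes. Cp fell with the score in Eif2s3y-low mice (r = -0.44, adjusted p = 2.38e-07) and in the 105 (r = -0.28, adjusted p = 0.00949). The mean log2 ratio of the 12 macrophage genes had a median of -0.48 in Eif2s3y-low mice and -0.20 in mice with Gpx5, against 0.40 in the 105. With the score as a covariate, the Eif2s3y-low difference of Saa3 from the 105 was 0.25 ± 0.12 (adjusted p = 0.0618), against -0.15 without it. Orm2 (adjusted p = 0.0791), its second probe (adjusted p = 0.547) and Steap4 (adjusted p = 0.479) then missed the threshold in that contrast. The covariate fit used a common slope on the score for all sets. Slopes differed between these sets for Saa3, both Orm2 probes and Steap4, so the adjusted differences depend on the score at which they are read.

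**Figure D5:**
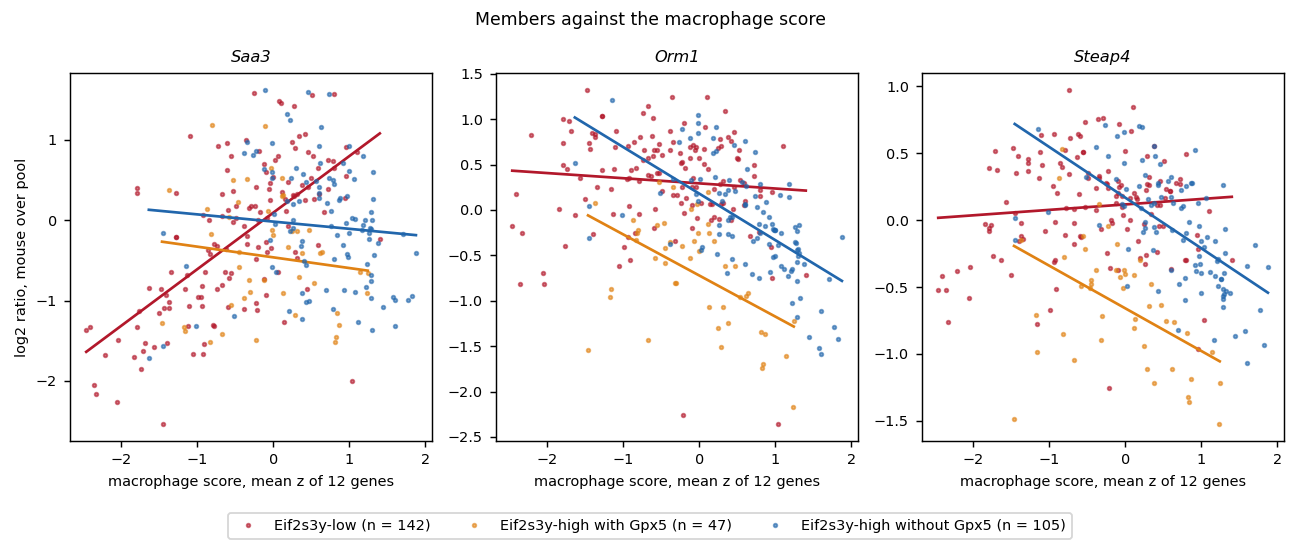
Log2 ratio of Saa3, Orm1 and Steap4 (vertical axes) against the macrophage score, the mean z-score of 12 genes (horizontal axes), a point per mouse with a least-squares line per set. The Saa3 slope is 0.70 in Eif2s3y-low mice and -0.09 in Eif2s3y-high mice without Gpx5, and the Orm1 slopes are -0.06 and -0.51.

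The adipocyte score gave another contrast among the members. With the mean z-score of the 9 adipocyte genes, Orm1 had r = 0.80 over all mice, and 0.60, 0.81 and 0.76 in Eif2s3y-low mice, mice with Gpx5 and the 105. Steap4 had 0.75, with 0.46, 0.85 and 0.72 in the sets, and Orm2 had 0.63, with 0.36, 0.73 and 0.54. Saa3 had 0.06 over all mice, with -0.21, 0.36 and 0.20. These are descriptions without a test, and the members and the score share each array. All 9 adipocyte genes rose with Lep themselves, with Dgat2 at 0.54 the highest.

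Other acute phase genes moved with Lep in both directions. Of 36 listed, 21 were measured beside the members, and 11 rose and 6 fell, with a median r of 0.14 against 0.03 over all probes. Serpina3n, a protease inhibitor, rose at r = 0.53 (limma adjusted p = 4.90e-21), Lbp, the lipopolysaccharide-binding protein, at 0.51, and Ptx3, a pentraxin, at 0.49. Il1rn, the antagonist of the interleukin 1 receptor, fell at -0.55, Pzp, a protease inhibitor of the macroglobulin family, at -0.39 and Itih4, an inter-alpha-trypsin inhibitor chain, at -0.37. The shares called, 17 of 21, stand beside 67.0% of all probes. The r values of listed genes with Lep, here and below, are over all mice, so differences in level between sets can enter them. Their relations to Lep within sets are not given.

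Of 29 measured regulators of the acute phase, 12 rose and 5 fell with Lep, with a median r of 0.03, against 0.03 over all probes, and the share called lay below the 67.0% of all probes. The oncostatin M receptor gene Osmr had 0.61, the shared receptor subunit gene Il6st 0.54 and the leukaemia inhibitory factor receptor gene Lifr 0.46. Bcl3 and Nfkbiz, both nuclear regulators of NF-kB, had -0.31 and -0.22, and the NF-kB subunit gene Rela had -0.17. Tlr4 is the lipopolysaccharide receptor gene in which C3H/HeJ carries a known loss of function. Over all mice it gave r between -0.39 (Lcn2) and 0.25 (Steap4) with the members. In Eif2s3y-low mice, mice with Gpx5 and Eif2s3y-high mice without Gpx5, r was -0.15, -0.25 and -0.04 for Lcn2. For Steap4 it was 0.32, -0.04 and -0.09 in the same order. The medians of Tlr4 itself were 0.11, -0.30 and 0.29, so the pooled value for Lcn2 joins clusters. Of 9 glucocorticoid-responsive genes 5 rose and 1 fell, again near that 67.0%, with Zbtb16 at 0.44, Tsc22d3 at 0.38 and Pdk4 at 0.35, and Fkbp5 at -0.34.

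Genes of iron and copper handling, to which Steap4, Cp and Lcn2 belong by function, were counted in the same way. Of 15 measured, 7 rose and 3 fell with Lep, a share called that is near the 67.0% of all probes. Hfe, a regulator of iron uptake, had 0.47, the ferroxidase gene Heph 0.41 and the transferrin receptor gene Tfr2 0.40. The metalloreductase gene Steap2 had -0.35, the metal transporter gene Slc11a2 -0.22 and the copper pump gene Atp7a -0.18. Steap2 and Steap4, of the same family, thus had opposite directions over all mice. The value of Steap2 is pooled, with none given within sets, so differences in level between sets can enter it. Of 3 other lipocalin family genes, Ptgds (r = -0.36) and Obp2a (-0.33) fell with Lep over all mice, and Apod gave -0.06 (adjusted p = 0.33). The mean of the 3 had a median of 1.62 in mice with Gpx5. It was -1.36 in Eif2s3y-low mice and -1.15 in Eif2s3y-high mice without Gpx5. Lep was lower in mice with Gpx5, so the pooled falls cannot be separated from this difference in level. Values within sets are not given.

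Markers of other cell types were read the same way against Lep, beside the 67.0% of all probes called. Of 12 macrophage genes 5 rose and none fell, of 10 neutrophil genes 3 rose and 2 fell, and of 8 hepatocyte genes 2 rose and 2 fell, all shares below that of all probes. All 6 epididymis genes and 7 of 8 epithelial genes fell, as did 3 of 4 mesothelial genes while 1 rose. The epididymis and epithelial falls are pooled slopes that join clusters, as for Lcn2. Their mean log2 ratios had medians of 1.88 and 1.62 in mice with Gpx5. The medians were -4.63 and -1.75 in Eif2s3y-low mice, and -4.49 and -2.11 in Eif2s3y-high mice without Gpx5. Lep had medians of -0.18, 0.08 and 0.14 in the same order of sets. Relations of these genes to Lep within sets are not given. Of 2 pancreas genes and 3 muscle genes, 1 each rose.

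The genes most like each member over the 295 mice differed between members. Orm1 was nearest to Orm2, then to Gstz1 (0.86) and Pcca (0.83), which encode enzymes of tyrosine and propionate breakdown, and lay farthest from Map11 (-0.74). Orm2 was nearest to Orm1, Tmem135 (0.79) and Fgf10 (0.76), and farthest from Hdgfl2 (-0.67). Its second probe was nearest to Fgf10 (0.79), Ampd3 (0.77) and Kcnh8 (0.77), and farthest from the probe annotated ENOPH1 (-0.71). Steap4 was nearest to the growth hormone receptor gene Ghr (0.85), to Pparg (0.82), the nuclear receptor of fat cell differentiation, and to Orm1, with Smox at -0.74. In the sets, Steap4 and Pparg gave 0.67 in Eif2s3y-low mice, 0.87 with Gpx5 and 0.80 in the 105.

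Saa1 and Saa3 were nearest to each other and then to Tph2 (0.70 and 0.71), a tryptophan hydroxylase gene, and Tfpi2 (0.64 and 0.65), a protease inhibitor gene, with Apbb3 at -0.56 and -0.57. Tph2 and Saa3 gave 0.80 in Eif2s3y-low mice, 0.65 with Gpx5 and 0.62 in the 105. Saa2 was nearest to Saa1, Hsd17b7 (0.51) and Saa3, with Fign at -0.40. Lcn2 was nearest to the epididymal genes Lcn8 and Cst11 (0.94 each) and to Aanat (0.93). Within the sets, Lcn2 and Lcn8 gave 0.31, 0.64 and 0.28. Cp was nearest to Fign (0.62), Clcn3 (0.60) and Trps1 (0.59), with Virma at -0.50.

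Member levels also moved with the mouse number, the only order the labels give. All member probes but that of Saa2 were called over the 295 mice, against 47.2% of all probes. Lcn2 fell by 0.41 ± 0.07 log2 units per 100 in mouse number (limma adjusted p = 2.28e-07), and Saa3 rose by 0.17 ± 0.04 (adjusted p = 0.000763). The arrays with Gpx5 lay mostly at low numbers: 33 of the 99 lowest-numbered mice, 10 of the next 98 and 4 of the last 98. Without these arrays both Orm2 probes, Orm1, Lcn2, Steap4 and Cp were no longer called (adjusted p from 0.179 to 0.965), while Saa1 and Saa3 were (adjusted p = 0.0261 and 0.0213). That fit also called fewer of all probes than the fit over the 295 mice, with both counts given in the last section. The Saa1 and Saa3 probes gave almost the same values, so their calls are not separate results. The median of Saa3 was -0.64 in the low, -0.11 in the middle and 0.11 in the high block of mouse numbers.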

How the data were processed

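Adipose RNA was hybridised to 2-colour arrays with mouse RNA in Cy3 and the pool in Cy5, per the labels. The deposited values are taken as log10 ratios of mouse over pool, bounded at -2 and 2. Their base, centring and normalization are not given in the sources used here, so fold sizes rest on the log10 reading, while correlations and calls do not. They were multiplied by 3.3219 to give log2. Array medians ran from -0.0521 to 0.0387 (log10). Of 43365 pairs of arrays, 944 correlated below -0.3 (lowest -0.523), each pairing an array with epididymal transcripts and one without, and the labelled direction was kept.

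Of 23387 probes, 22894 with values on at least 90% of arrays were kept, and 7762 gaps were filled with the probe mean. The platform table gave 1 symbol for 13644 probes, several for 48 and none for 9695. Sets used Eif2s3y (below -0.6) and Gpx5 (above -0.5), in log10 units. Relations and set differences were fitted with limma 3.58.1 in R 4.3.3 over all probes, with Benjamini-Hochberg adjustment and a threshold of 0.05, and with 100000 two-sided permutations for single correlations (scipy 1.17.1). Named genes were the members, the 3 most alike and the 1 most opposite for each probe, and the 3 highest and lowest of each list. A score is the mean z-score of a list. Members and lists were chosen with earlier results of these data known. Tests of macrophage slopes, the macrophage covariate and the removal of hepatocyte-rich mice were chosen after seeing the data. The labels give 1 sample per mouse, and the spread between mice includes technical error that no repeat array measures, and the number of arrays limits precision. On simulated data over 22894 probes, 83% of Lep slopes of 0.2 and 99% of 0.5 were recovered, and 74% of slope differences of 0.4. The simulated noise was normal and drawn independently for each probe, unlike the correlated probes measured here, so these rates need not hold for the real data. The title's mouse number was used for 1 mouse whose source name differs.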

Additional observations from a re-analysis of the deposited data

Results flagged for a closer look

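The slope of the first Orm2 probe on Lep differed between sets by -0.23 (0.65 in Eif2s3y-low mice and 0.88 in Eif2s3y-high mice without Gpx5, limma adjusted p = 0.0425). That test called 23.2% of all probes, and the second Orm2 probe did not pass it. Slopes on the macrophage score differed between the same sets for 6 of the 9 member probes, in a test that called 18.5% of all probes. Saa3 differed by 0.794 (slopes 0.70 and -0.09) and Saa1 by 0.773 (0.68 and -0.09). Orm1 differed by 0.456 (-0.06 and -0.51), Orm2 by 0.38 (0.10 and -0.28), the second Orm2 probe by 0.297 (-0.08 and -0.38) and Steap4 by 0.371 (0.04 and -0.33). The adjusted p was at most 3.03e-05 for these 6, each tested by limma as an interaction. Between mice with Gpx5 and Eif2s3y-high mice without it, the second Orm2 probe differed by 0.285 (-0.09 and -0.38, adjusted p = 0.0239), in a test that called 5.57% of probes.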

How the results depend on the processing

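Values are r or partial r unless called counts. For Lcn2 and Lep, r was 0.14 without the arrays with Gpx5, 0.37 after adjustment for principal component 1 and 0.082 after adjustment for the set. Probes called for Lep numbered 10016, 8691 and 9512 in the low, middle and high blocks of mouse numbers, by either numbering, against 15343 in all mice, with fewer mice in each. Slope differences called between mice with and without Gpx5 numbered 1 with array medians removed and 3 with the unplaced array assigned by Lcn8, against 21. In Eif2s3y-low mice against the 105, Saa1 and Saa3 turned to 0.12 each with the macrophage covariate, fitted with a common slope although the slopes of these sets differed. In mice with Gpx5, they turned to 0.039 and 0.046 with Lep. The Steap4 macrophage slope difference for mice with Gpx5 was -0.00063 with medians removed. For mouse number without arrays with Gpx5, 2818 probes were called against 10817, and r was -0.0060 for the second Orm2 probe and 0.11 for Lcn2. Among pairs, Saa2 and Lcn2 gave 0.024 with medians removed. Without arrays with Gpx5, Lcn2 gave 0.23 with Saa1, 0.30 with Saa2, 0.23 with Saa3 and -0.10 with Cp, the second Orm2 probe gave -0.031 with Saa2, and Steap4 gave 0.033 with Cp. On ranks, Lcn2 gave 0.11, 0.19 and 0.12 with Saa1, Saa2 and Saa3. With Lep as a covariate, 12 gene pairs were called against 24, and the share of all probes called was not counted there. Cp then gave 0.12 with Orm1, 0.082 with Orm2, 0.032 with the second Orm2 probe and 0.27 with Steap4. That probe gave -0.14, -0.10 and -0.14, and Lcn2 gave 0.13, 0.070 and 0.14, with Saa1, Saa2 and Saa3. The cause was not tested. Of 153 repeats of member relations to Lep, 141 kept direction and call, 9 lost the call and 3, all of Lcn2, reversed. No paired analysis was possible because all mice belong to 1 group. Signal over background is unknown, since only ratios were used.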
